A study of Mus musculus with 8 samples.

Results

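The genes described here are the 105 mouse genes of the authors' table whose symbols begin with Zfp and a digit (87 genes), Zbtb and a digit (16 genes) or Zkscan (2 genes). They make up 1.92% of the 5457 listed genes and were taken by a rule on names that uses no measured value, but the family was picked for description with earlier results of these data known. Proteins with these names are mostly transcription factors built from C2H2 zinc fingers, small domains folded around a zinc ion that read DNA bases in tandem. Many Zfp proteins also carry a KRAB domain, which recruits the corepressor Trim28 and silences retroelements and imprinted loci, while Zbtb proteins carry a BTB domain, which pairs subunits and binds corepressors. The names do not cover only DNA-binding factors: 9 of the 105 are described as binding RNA or as acting otherwise than through a DNA sequence, 4 had no C2H2 motif in their coding sequence (Zfp365, Zfp36l1, Zfp36l2 and Zfp503), and Zfp862-ps is named as a pseudogene.

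The cells were tdTomato-positive cells sorted from digested hind limb muscle of adult C57BL/6 mice and plated on Matrigel. Tw2_GM and Tw2_48 cells came from mice of genotype Tw2-CreERT2/+;R26-tdTO+, and Pax7_GM and Pax7_48 cells from mice of genotype Pax7-CreERT2/+;R26-tdTO+, so every group carried the R26 reporter. All mice received tamoxifen in 3 treatments, 10 days before harvest. The reporter then marks cells in which the Twist2 or the Pax7 driver was active, and their descendants. Pax7 is the defining transcription factor of satellite cells, the resident stem cells of skeletal muscle, and Twist2 is a basic helix-loop-helix factor of mesenchymal progenitors. GM stands for growth medium, Ham's F10 with 20% fetal bovine serum. The labels also describe a differentiation medium of high-glucose DMEM with 2% horse serum and bFGF, but do not say which medium the libraries named 48 (48hr in the Tw2 titles) were kept in, and one protocol speaks of freshly sorted cells. The series compares the Tw2 and the Pax7 lineage after this culture. Each group has 2 libraries, and the labels do not say whether 2 libraries of a group came from different animals or dishes, so p-values measure the spread between these libraries alone, which may be technical.

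The authors deposited the mean CPM of each group, the read count of a gene scaled to a library total that is the same for every library. Each mean was taken apart into its 2 libraries, called deeper and shallower by their implied size, and values below are given in that order. Implied sizes were 12173390 and 11295697 reads in Tw2_GM, 7381252 and 5183380 in Pax7_GM, 13733379 and 9396831 in Tw2_48, and 10643518 and 7637522 in Pax7_48. Before rounding these sizes lay 0.126 to 0.444 reads from a whole number, so they are the totals the CPM were scaled to and may not be the numbers of reads in the libraries, and how the authors set them is not given in the sources used here. A count of 0 allows up to 3 reads at 95% confidence, which came to between 0.218 and 0.579 CPM, counting error only. Every listed gene differs at least 2-fold in its mean from Tw2_GM in at least 1 other group. It also reaches 10 CPM in at least 4 libraries, which can be the Tw2 libraries alone. A group mean of at least 10 CPM was reached by 102 of the 105 genes in Tw2_GM and 96 in Tw2_48. In Pax7_GM 71 reached it and in Pax7_48 64. Of the 5452 genes tested 4867, 4724, 4736 and 4453 did, in that order. All counts and shares below are relative to genes selected in that way. The effect of this selection on the lineage differences was not tested, and genes outside the table were not analysed here. Of 7 satellite cell and myoblast markers 5 were listed, with summed levels of 1997 to 2014 CPM in Tw2_GM libraries, 2297 to 2807 CPM in Pax7_GM libraries, 5429 to 5488 CPM in Tw2_48 libraries and 7756 to 8322 CPM in Pax7_48 libraries. Pax7 itself had 113 and 109 CPM in the Tw2_GM libraries, against 117 and 112 CPM in those of Pax7_GM. At 48 Pax7 was lower, with 13.0 and 12.6 CPM in Tw2_48 libraries and 9.58 and 9.95 CPM in Pax7_48 libraries. Vcam1 was also lower at 48 in both lineages, so the higher sum there followed Des, Cdh15 and Itga7. No endothelial, glial or adipocyte marker was listed. The immune marker Itgam had a level of 0 CPM in both Tw2_GM libraries, against 0.542 and 0.579 CPM in Pax7_GM libraries. At 48 it had 22.8 and 18.1 CPM in Tw2_48 libraries, against 15.9 and 11.9 CPM in Pax7_48 libraries. Of 8 fibro-adipogenic markers 4 were listed and summed to 979 to 1032 CPM in Tw2_GM libraries, against 525 to 551 CPM in Pax7_GM libraries. That sum followed Col3a1, at 987 and 940 CPM in Tw2_GM libraries against 462 and 477 CPM in Pax7_GM libraries, and Tcf7l2 was also higher in Tw2_GM. The other pair went the opposite way: Prrx1 had 4.68 and 2.39 CPM in Tw2_GM libraries against 29.5 and 39.7 CPM in Pax7_GM libraries, and Col1a1 had 3.53 and 2.39 CPM in Tw2_GM libraries against 12.5 and 13.1 CPM in Pax7_GM libraries. Myog, the myogenin gene of committed muscle cells, had 110 and 89.1 CPM in Tw2_GM libraries against 439 and 351 CPM in Pax7_GM libraries, and 3697 and 3859 CPM in Tw2_48 libraries against 2491 and 2247 CPM in Pax7_48 libraries. Of 5 pericyte and smooth muscle markers 3 were listed. Rgs5 had 56.3 and 62.1 CPM in Tw2_GM libraries against 11.4 and 18.9 CPM in Pax7_GM libraries, and Cspg4 was also higher in Tw2_GM. Acta2 went the other way in GM, but had 8616 and 8229 CPM in Tw2_48 libraries against 5139 and 5421 CPM in Pax7_48 libraries. The tenocyte marker Scx had 27.5 and 32.1 CPM in Tw2_GM libraries against 110 and 91.4 CPM in Pax7_GM libraries. The part of these differences in cell state in the results below was not tested, and in bulk RNA fewer cells of a type and less RNA per cell cannot be told apart.

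Most of the listed zinc finger genes stood highest in the Tw2 lineage in growth medium, in a table whose level filter Tw2 libraries alone can meet. The mean CPM was highest in Tw2_GM for 75 of 105 genes (71.4%, against 47.1% of all listed genes). It was highest in Tw2_48 for 19 (18.1%, against 20.4%), in Pax7_GM for 7 (6.67%, against 12.29%) and in Pax7_48 for 4 (3.81%, against 20.21%). Pax7_GM was the lowest group for 46 of the 105 (43.81%, against 22.85%) and Pax7_48 for 42 (40%, against 31.09%). The median level over the 105 genes was 38.9 and 37.2 CPM in the Tw2_GM libraries, against 11.9 and 16.2 CPM in the Pax7_GM libraries. In the later culture the medians were 26.9 and 22.8 CPM in Tw2_48 libraries, against 12.9 and 12.05 CPM in Pax7_48 libraries. The library medians of the lineages therefore did not overlap in either culture, and neither did those of all listed genes. Over all listed genes the medians were 52.7 and 50.8 CPM in Tw2_GM libraries, against 31.6 and 35.9 CPM in Pax7_GM libraries. At 48 they were 43.0 and 40.3 CPM in Tw2_48 libraries, against 31.2 and 30.5 CPM in Pax7_48 libraries. The Pax7_GM libraries differed most: the shallower one was at least 1.5 times the deeper one for 53 of the 105 genes, while this held for none of them in the other 3 groups. Of the 5452 genes tested it held for 1297 in Pax7_GM, and for 34 in Tw2_GM, 53 in Tw2_48 and 40 in Pax7_48. Per kilobase of transcript the highest mean levels over all libraries were those of Zfp106 (86.4 CPM per kb), Zfp207 (72.0), Zfp346 (55.7), Zfp36l2 (45.6) and Zfp622 (36.1), all 5 of them genes of the list that binds RNA or acts without a DNA sequence.

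**Figure D1:**
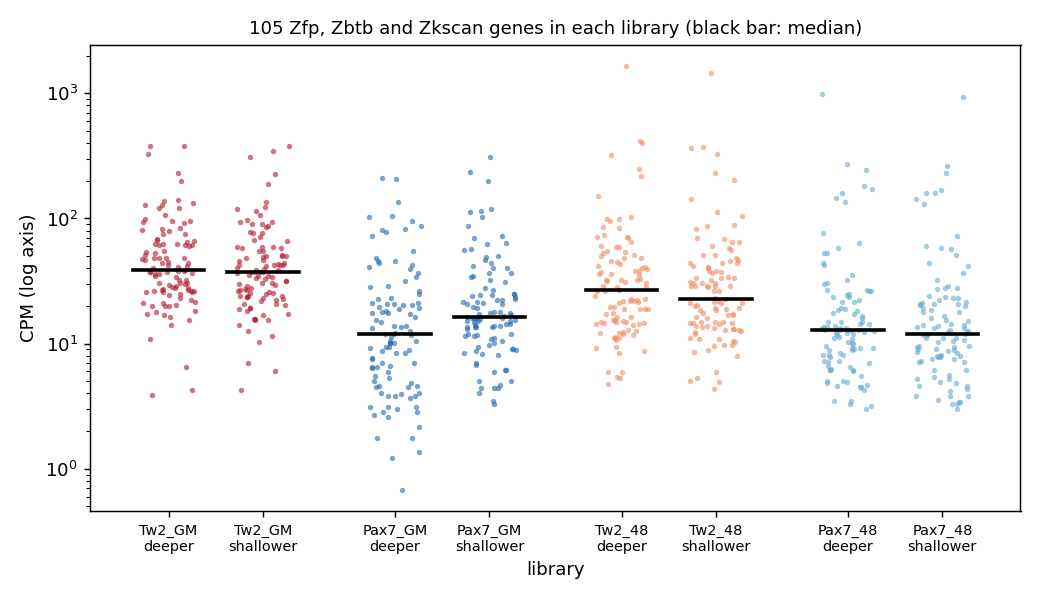
CPM (log axis) of the 105 zinc finger genes in each of the 8 libraries; points are genes and black bars are medians. Medians lie at 38.9 and 37.2 CPM in Tw2_GM libraries against 11.9 and 16.2 CPM in Pax7_GM libraries, and at 26.9 and 22.8 CPM in Tw2_48 libraries against 12.9 and 12.05 CPM in Pax7_48 libraries.

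In growth medium 82 of the 105 zinc finger genes were higher in Tw2_GM than in Pax7_GM, 9 were lower and 14 were not called. Over all 5452 genes tested, 74.7% were called in this comparison, 48.7% higher and 26% lower (limma on log2(CPM + 1) over the 8 libraries, Benjamini-Hochberg adjusted p under 0.05). The median log2 fold change was 1.31 (quartiles 0.54 and 2.32), against 0.34 for all listed genes, an excess of 0.97, and 84 of the 105 genes lay above the median of all. Libraries of the lineages did not overlap for 88 genes higher and 10 lower in Tw2_GM, and for 3023 higher and 1763 lower of all tested. A lack of overlap, where named below, was thus the usual case in this table. At least 2-fold differences were fitted for 63 genes higher and 3 lower, and for 1838 higher and 516 lower of the 5452 genes tested. The counts depended on the scaling of the libraries. With size factors the median of all listed genes lay at -0.50, 53 zinc finger genes were higher and 23 lower, and the shares over all genes were 25.55% higher and 53.93% lower. The excess was then 0.951, but size factors shift the genes of a library nearly alike, so that this value is no check of the excess. With quantile normalization the median of all lay at -0.14, 66 zinc finger genes were higher and 15 lower, the shares over all genes were 36.19% and 40.5%, and the excess was 0.934. When the trend of the fold change with transcript GC content and length was removed, 82 were higher and 6 lower, 72 of the 82 from the fit without this step among them, while the shares over all genes were 63.91% and 14.12%. The excess fell to 0.349, with the median of all at 0.53. In all 4 of these fits 52 of the 105 genes were called higher, 49.5% against 22.7% of all genes, and 2 were called lower, Zfp36l1 and Zbtb4. Leaving out either Pax7_GM library moved the excess, to 0.706 without the deeper one and 1.195 without the shallower one, while 84 and 83 genes were called higher.

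**Figure D2:**
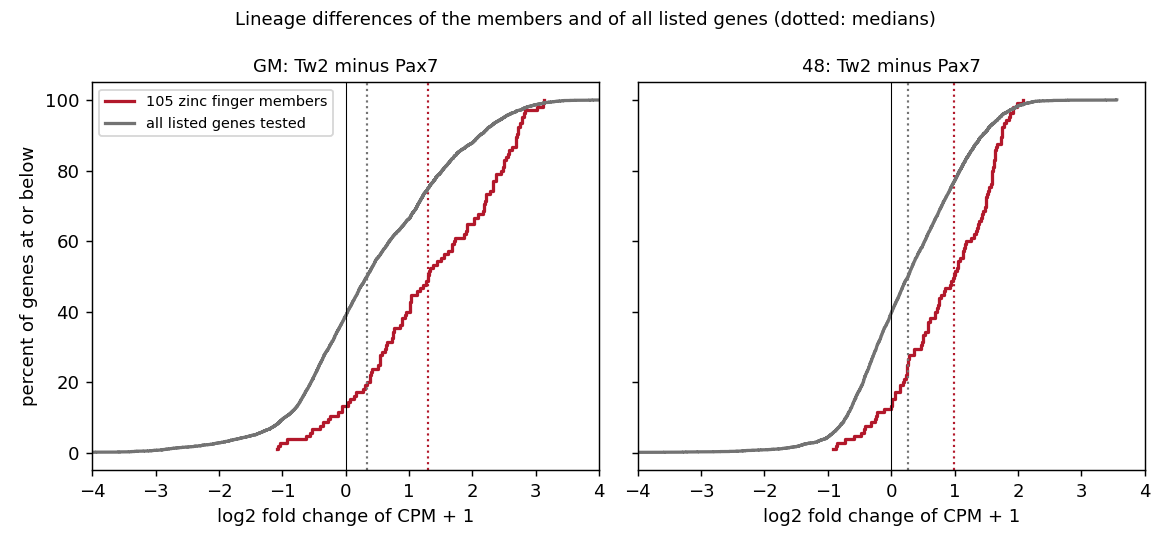
Cumulative share (percent) of genes by their log2 fold change of CPM + 1, Tw2 minus Pax7, in GM (left) and at 48 (right); red, 105 zinc finger genes, grey, all listed genes tested, dotted, medians. Red curves run to the right of the grey ones over most of their range, with medians of 1.31 against 0.34 in GM and 0.98 against 0.27 at 48.

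The largest differences in growth medium were above 8-fold on the scale of CPM + 1, in 3 genes. Fold changes in this paragraph are from the fit on the authors' scaling, with the GC and length trend left in. Zfp62, a protein with 25 C2H2 motifs encoded at chr11:49203292-49218816 (GRCm38, plus strand), had 61.7 and 46.2 CPM in Tw2_GM libraries, against 3.12 and 8.49 CPM in Pax7_GM libraries, with a log2 fold change of 3.12 ± 0.35 (SE, n = 2 libraries per group, limma adjusted p = 0.00015). Zfp292, at chr4:34803113-34882960 on the minus strand, had 74.7 and 50.02 CPM in Tw2_GM libraries, against 4.06 and 9.07 CPM in Pax7_GM libraries (log2 fold change 3.12 ± 0.31, limma adjusted p = 0.00011). Zbtb41, at chr1:139422288-139453005 on the plus strand, had 78.9 and 58.3 CPM in Tw2_GM libraries, against 3.93 and 13.5 CPM in Pax7_GM libraries (3.03 ± 0.43, limma adjusted p = 0.00036). For these 3 genes the lower Tw2_GM library was more than 4 times the higher Pax7_GM library, although the libraries of each group also differed from each other. Next in size came Zfp397 (2.83), Zfp280d (2.81), Zfp260 (2.79), Zfp445 (2.78), Zfp26 (2.75), Zfp871 (2.72) and Zfp715 (2.72), all log2 fold changes of called genes whose libraries did not overlap between the groups. Zfp715 was the lowest of them in level, at 18.3 and 15.8 CPM in Tw2_GM libraries against 0.677 and 3.47 CPM in Pax7_GM libraries, where the deeper library is close to its limit for a count of 0 of 0.406 CPM.

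Genes in the other direction were fewer and their differences smaller. Zfp213, at chr17:23556767-23564238 on the minus strand, had 17.9 and 17.4 CPM in Tw2_GM libraries, against 42.8 and 34.3 CPM in Pax7_GM libraries (log2 fold change -1.08 ± 0.15, limma adjusted p = 0.0003). Zfp385a, which binds RNA and modulates p53 target choice, had 16.4 and 15.4 CPM in Tw2_GM libraries against 36.7 and 32.2 CPM in Pax7_GM libraries (-1.07). Zfp36l1, at chr12:80107754-80113013 on the minus strand, which binds AU-rich elements and speeds mRNA decay, had 10.8 and 10.3 CPM in Tw2_GM libraries against 21.3 and 24.1 CPM in Pax7_GM libraries (-1.03). In these 3 genes each Pax7_GM library stood above each Tw2_GM library, which was a condition for naming them here. However, Zfp213 and Zfp36l1 share 46.5% and 55.9% of their exon bases with noncoding RNA genes of the opposite strand. The other 6 were Zfp954 (-0.92), Zbtb4 (-0.63), Zfp622 (-0.56), Zfp219 (-0.52), Zfp862-ps (-0.41) and Zfp651 (-0.36), again log2 fold changes. With the GC and length trend removed, Zfp622, Zfp219, Zfp862-ps and Zfp651 had positive fold changes of 0.070, 0.250, 0.110 and 0.195 that were not called, and Zfp213, Zfp385a and Zfp954 were no longer called. Zfp651, Zfp862-ps, Zfp622 and Zfp219 also lost their call when single libraries were left out.

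Start regions are shown for the pair of genes with the largest difference in each direction that have a single window in the RefSeq table (GRCm38.p6), since these are the genes between which the lineages differ most. Each window runs from 250 bases before the start to 50 after it, in the direction of transcription. Capitals mark exact matches, on either strand, to 4 motifs. The first is the E-box that myogenic factors prefer, with the letters CAGCTG. The site of ETS factors, found in many promoters of widely expressed genes, was searched as CCGGAAG. For NRF1, a regulator of genes for mitochondria that binds a palindrome, the core letters were GCATGCG. The fourth, bound by the trimeric factor NF-Y, is named for its letters, CCAAT. In order, the windows lie at chr4:34882899-34883198 (minus), chr1:139422133-139422432 (plus), chr17:23564177-23564476 (minus) and chr12:80112964-80113263 (minus).
Zfp292: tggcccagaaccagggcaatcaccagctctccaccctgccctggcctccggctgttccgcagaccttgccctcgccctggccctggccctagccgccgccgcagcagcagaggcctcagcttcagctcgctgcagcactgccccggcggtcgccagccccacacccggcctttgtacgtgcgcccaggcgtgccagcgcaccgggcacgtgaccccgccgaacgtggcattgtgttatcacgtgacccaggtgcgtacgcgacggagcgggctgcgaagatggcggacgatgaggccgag
Zbtb41: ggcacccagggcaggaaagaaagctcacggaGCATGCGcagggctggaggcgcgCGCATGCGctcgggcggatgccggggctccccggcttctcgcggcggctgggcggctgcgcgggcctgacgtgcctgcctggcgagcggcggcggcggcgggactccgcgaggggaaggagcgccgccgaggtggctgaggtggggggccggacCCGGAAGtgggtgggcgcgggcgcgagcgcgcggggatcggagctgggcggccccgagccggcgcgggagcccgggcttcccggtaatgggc
Zfp213: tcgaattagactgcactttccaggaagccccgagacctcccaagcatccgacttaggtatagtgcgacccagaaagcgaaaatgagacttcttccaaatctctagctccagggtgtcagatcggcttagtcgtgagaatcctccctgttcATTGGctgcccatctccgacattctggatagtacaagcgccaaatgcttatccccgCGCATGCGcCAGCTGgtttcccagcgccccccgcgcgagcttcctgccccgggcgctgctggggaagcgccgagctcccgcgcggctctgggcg
Zfp36l1: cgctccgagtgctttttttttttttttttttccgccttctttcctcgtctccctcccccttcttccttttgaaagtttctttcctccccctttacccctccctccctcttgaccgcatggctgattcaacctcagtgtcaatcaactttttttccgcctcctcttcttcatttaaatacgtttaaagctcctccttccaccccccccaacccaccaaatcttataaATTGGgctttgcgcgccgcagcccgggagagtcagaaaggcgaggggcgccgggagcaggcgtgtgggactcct

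The Zfp292 window, at 70.3% GC, held none of the 4 motifs. In Zbtb41, at 79.0% GC, NRF1 core matches began at bases 32, 55 and 56, the last pair overlapping on opposite strands, and an ETS match at base 209 of the window. Zfp213, lower in Tw2_GM, had a CCAAT match from base 151, overlapping NRF1 core matches from bases 207 and 208, and the E-box match from base 216. Zfp36l1 had a single CCAAT match from base 227. Across the family 87 of the 105 genes had a window. The E-box was in 13.8% of them, against 15.8% of 4147 listed genes and 16.1% of 27025 genes of the table. ETS matches were in 21.8% of family windows, against 16.1% of listed genes and 9.12% of all genes. NRF1 core matches were in 14.9%, against 7.21% and 3.64%, and CCAAT matches in 47.1%, against 38.9% and 37.9%. Family windows had a median GC of 58.3%, against 62.7% for listed genes. These matches are descriptions of the letters in the window and were not tested.

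At 48 the lineages differed in the same direction. Of the 105 zinc finger genes 71 were higher in Tw2_48 than in Pax7_48, 8 were lower and 26 were not called, where 65.4% of all genes tested were called, 43.3% higher and 22.1% lower. Their median log2 fold change was 0.98, against 0.27 for all listed genes, an excess of 0.717, and 77 of them lay above the median of all. Libraries of the lineages did not overlap for 85 genes higher and 13 lower in Tw2_48, and for 3021 higher and 1863 lower of all tested. At least 2-fold differences were fitted for 52 higher and 0 lower, and for 1249 higher and 241 lower of the 5452 genes tested. Size factors gave 41 higher and 23 lower, where the shares over all genes were 17.33% and 48.26%. Quantile normalization gave 62 and 13, against 29.46% and 31.46% of all genes, with an excess of 0.623. Removal of the GC and length trend gave 64 and 3, against 47.28% and 12.35% of all genes, with an excess of 0.235, and 52 of the 71 genes called higher were called higher there too. In all 4 fits 39 genes were higher, 37.1% against 16.1% of all genes, and Zfp219 and Zfp518b were lower. Without the deeper Tw2_48 library 46 genes were called higher, where 26.82% of all genes were, the smallest count of any leave-one-out fit at 48, and 4 were lower without it or without either Pax7_48 library.

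Zfp280c, one of several Zfp280 genes in the family, had the largest difference at 48. It had 30.4 and 21.2 CPM in Tw2_48 libraries, against 6.01 and 4.58 CPM in Pax7_48 libraries (log2 fold change 2.08 ± 0.32, limma adjusted p = 0.0015). Zfp148, a GC-box binding factor, had 53.5 and 50.9 CPM in Tw2_48 libraries against 12.9 and 12.05 CPM in Pax7_48 libraries (1.98 ± 0.34). Zfp445, which maintains imprints, had 83.7 and 69.9 CPM in Tw2_48 libraries against 18.6 and 20.2 CPM in Pax7_48 libraries (1.93 ± 0.34). None of these libraries overlapped between the lineages, which was a condition for naming a gene among the largest differences. Zbtb41 (1.93), Zfp654 (1.87), Zfp26 (1.86), Zfp715 (1.804), Zfp280d (1.77), Zbtb38 (1.75) and Zfp704 (1.75) followed. On the other side stood Zfp219 (-0.92), a partner of Sox9 in cartilage, Zfp213 (-0.87), Zfp518b (-0.86), Zfp954 (-0.73), Zfp622 (-0.59), Zfp395 (-0.48), Zbtb45 (-0.44) and Zfp651 (-0.41). Zfp219 had 14.7 and 13.0 CPM in Tw2_48 libraries against 26.8 and 27.5 CPM in Pax7_48 libraries.

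Both cultures gave the same call for most of the family. Higher in Tw2 in GM and at 48 were 68 genes, 64.8% against 37.0% of all genes, and lower in both were 5 (Zfp213, Zfp219, Zfp622, Zfp651 and Zfp954), 4.76% against 14.7%. Called higher in GM and not called at 48 were 14 genes, 13.3% against 10.6% of all genes. Zfp275 and Zfp365 were higher at 48 with no call in GM (1.90% against 4.18%). Zbtb4, Zfp385a and Zfp862-ps were lower in GM only (2.86% against 9.15%). Zbtb45, Zfp395 and Zfp518b were lower at 48 only (2.86% against 6.35%). Here "only" refers to the calls and not to a test between cultures. Zfp36l1 was the single gene with opposite calls (0.952% against 3.28%). Called in neither culture were 9 genes, 8.57% against 14.8% of all genes, namely Zbtb5, Zfp30, Zfp346, Zfp362, Zfp428, Zfp516, Zfp553, Zfp672 and Zfp691.

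By name, the 87 Zfp genes had 67 higher and 8 lower in GM (median 1.32) and 59 and 7 at 48 (0.97). Over all genes tested 48.7% were higher and 26% lower in GM, and 43.3% and 22.1% at 48. Of the 16 Zbtb genes 13 were higher in GM and 1 lower (median 1.03), and 10 and 1 at 48 (0.88). Zkscan1 and Zkscan8 were higher in Tw2 in both cultures, with log2 fold changes of 1.30 and 2.19 in GM and 0.98 and 1.37 at 48. Among Zbtb genes, Zbtb33 (Kaiso, a reader of methylated CpG) had 62.8 and 50.3 CPM in Tw2_GM libraries against 3.79 and 15.2 CPM in Pax7_GM libraries. Zbtb11 had 38.3 and 34.8 CPM in Tw2_GM libraries against 3.79 and 8.10 CPM in Pax7_GM libraries, and Zbtb1, needed for lymphocyte development, had 60.4 and 59.3 CPM in Tw2_GM libraries against 7.59 and 15.05 CPM in Pax7_GM libraries. These libraries did not overlap between the lineages, as for most genes tested. Zbtb1 and Zbtb11 were picked as examples after their values were seen. Zbtb4 alone among Zbtb genes was called lower in Tw2_GM, at 28.01 and 24.2 CPM against 41.2 and 40.5 CPM in Pax7_GM libraries.

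A stretch like the start of a KRAB domain was found in the coding sequence of 19 of 104 genes with one. In GM 17 of these were higher in Tw2_GM, Zfp954 was lower and Zfp30 was not called, and the median over the 19 was 2.16 on the log2 scale. The 85 genes without it had 65 higher, 7 lower and a median of 1.17. In that comparison 48.7% of all genes were higher and 26% lower. Once the trend with GC and length was taken out, the medians were 1.00 and 0.81, and the 19 genes had a lower median transcript GC, 42.5% against 46.2%. At 48 the medians were 1.34 for the 19 and 0.94 for the 85, and 0.55 and 0.54 with the trend removed. Zfp60, one of the 19, had 26.1 and 21.8 CPM in Tw2_GM libraries against 1.76 and 4.44 CPM in Pax7_GM libraries. Zfp266, another, had 140 and 118 CPM in Tw2_GM libraries against 14.8 and 41.5 CPM in Pax7_GM libraries. Both thus had their Tw2_GM libraries above their Pax7_GM libraries, and both were picked as examples after their values were seen.

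The corepressors and partners of these proteins were set beside the family. Of 30 such genes 20 were listed. In GM 15 were higher in Tw2_GM (75%) and 0 lower (median 1.09), where 48.7% of all genes tested were higher and 26% lower. At 48 16 were higher (80%) and 1, the DNA methyltransferase gene Dnmt1, was lower (median 0.91). The shares over all genes were 43.3% and 22.1% there. With size factors the GM counts were 9 higher and 5 lower, where 25.55% of all genes were higher and 53.93% lower. With the GC and length trend removed 19 were higher and 0 lower, where the shares were 63.91% and 14.12%. Trim28, the common partner of KRAB domains, had 608 and 644 CPM in Tw2_GM libraries against 657 and 514 CPM in Pax7_GM libraries, overlapping groups with a log2 fold change of 0.11 ± 0.15 that was not called. That value moved with the scaling, to 0.93 with the GC and length trend removed and -0.77 with size factors. Atrx, a chromatin remodeler at silenced repeats, had 164 and 98.4 CPM in Tw2_GM libraries against 7.59 and 27.0 CPM in Pax7_GM libraries (3.05 ± 0.49). Morc3 (2.54), Fam208a (2.27), a subunit of the HUSH silencing complex, and Cul3 (2.23) followed. With the trend removed Atrx, Morc3, Fam208a and Cul3 had GM values of 1.28, 1.55, 0.49 and 0.57. Among 78 further zinc finger genes with other names 37 were listed, of which 26 were higher and 2 lower in GM (median 1.03), and 25 and 3 at 48 (median 0.79). With size factors those GM counts were 15 and 14. The shares over all genes are those given for the corepressors. The largest of them in GM were Plagl1 (3.10), Sp3 (2.86), Zfx (2.82) and Zim1 (2.59).

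Members with a described part in the fate of mesenchymal, fat or muscle cells were 6 of a list of 14. In GM 4 were higher in Tw2_GM and none lower, where 48.7% of all genes tested were higher and 26% lower. Zbtb18 (RP58), a repressor needed in myogenesis, had 94.8 and 85.7 CPM in Tw2_GM libraries against 31.8 and 49.0 CPM in Pax7_GM libraries (1.17 ± 0.20, limma adjusted p = 0.00096). It had 402 and 371 CPM in Tw2_48 libraries against 181 and 159 CPM in Pax7_48 libraries (1.18 ± 0.20). The lineages did not overlap in either culture, but once the trend with GC and length was taken out the GM value was -0.07 and not called. Zfp521, a repressor of fat cell commitment, had 30.1 and 27.3 CPM in Tw2_GM libraries against 15.3 and 24.5 CPM in Pax7_GM libraries (0.54). That call was lost when any 1 library other than the shallower Pax7_GM library was left out, and the value was 0.22 without the deeper Pax7_GM library. Zfp422, at 0.74 in GM, and Zfp521 both turned negative with size factors, at -0.12 and -0.30, without a call. Zbtb38 had 99.5 and 87.2 CPM in Tw2_GM libraries against 11.2 and 21.6 CPM in Pax7_GM libraries (2.50 ± 0.25). Zfp516, known from brown fat, and Zfp395 were not called in GM, with log2 fold changes of 0.30 and 0.42, but with size factors Zfp516 was called lower at -0.56. The median of the 6 genes in GM was 0.64, and -0.21 with size factors. At 48 Zbtb18, Zfp521 and Zbtb38 were higher in Tw2_48 and Zfp395 was lower, where 43.3% of all genes were higher and 22.1% lower.

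Of a list of 10 family members that act on imprinted genes, retroelements or methylated DNA, 6 were in the table. In GM 5 were higher in Tw2_GM (Zfp445, Zbtb33, Zbtb38, Zfp568 and Zfp57) and Zbtb4 was lower. The shares over all genes were 48.7% higher and 26% lower. Zfp445, at chr9:122844529-122866006 on the minus strand, had 138 and 94.5 CPM in Tw2_GM libraries against 10.4 and 23.5 CPM in Pax7_GM libraries (2.78 ± 0.34, limma adjusted p = 0.00019). Zfp57, which works with Zfp445 at imprinting control regions, had 48.1 and 37.6 CPM in Tw2_GM libraries against 19.1 and 22.2 CPM in Pax7_GM libraries (1.01 ± 0.20). It had 60.7 and 44.3 CPM in Tw2_48 libraries against 23.5 and 19.1 CPM in Pax7_48 libraries (1.25 ± 0.20). Zfp568, a repressor of an Igf2 transcript in the mouse embryo, had 199 and 190 CPM in Tw2_GM libraries against 77.6 and 114 CPM in Pax7_GM libraries (1.04 ± 0.19). For all 3 the lineages did not overlap in GM. With size factors Zfp57 and Zfp568 were at 0.17 and 0.17 in GM and not called.

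The 9 genes that bind RNA or act without a DNA sequence, of a list of 18, differed in both directions. In GM 5 were higher, 3 lower (Zfp36l1, Zfp385a and Zfp622) and Zfp346 was not called, with a median of 0.51, and at 48 5 were higher and 1, Zfp622, was lower. Among all genes tested 48.7% were higher and 26% lower in GM, and 43.3% and 22.1% at 48. Zfp106, an RNA-binding protein of nerve and muscle, had the highest level per kilobase in the family. It had 378 and 345 CPM in Tw2_GM libraries against 206 and 312 CPM in Pax7_GM libraries (0.51 ± 0.20, limma adjusted p = 0.044), a call lost when any library other than the shallower Pax7_GM one was left out. With size factors Zfp106 was at -0.36 and not called. Zfp207 (BuGZ), which acts at the mitotic spindle, had 326 and 308 CPM in Tw2_GM libraries against 135 and 199 CPM in Pax7_GM libraries (0.94 ± 0.19). Zfp326, of the elongating transcription complex, had 48.0 and 42.4 CPM in Tw2_GM libraries against 10.4 and 17.2 CPM in Pax7_GM libraries (1.68 ± 0.22). In these genes the Tw2_GM libraries lay above the Pax7_GM libraries, as they did for Zfp91, a ubiquitin ligase (1.31 ± 0.15). Zfp622, a ribosome assembly factor, had 53.5 and 58.7 CPM in Tw2_GM libraries against 95.5 and 72.0 CPM in Pax7_GM libraries. Zfp346, which binds double-stranded RNA, overlapped between the lineages in GM at 81.2 and 76.5 CPM in Tw2_GM libraries against 81.8 and 62.7 CPM in Pax7_GM libraries. With size factors 2 of the 9 were higher in GM and 4 lower, with a median of -0.36, where 25.55% of all genes were higher and 53.93% lower.

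**Figure D3:**
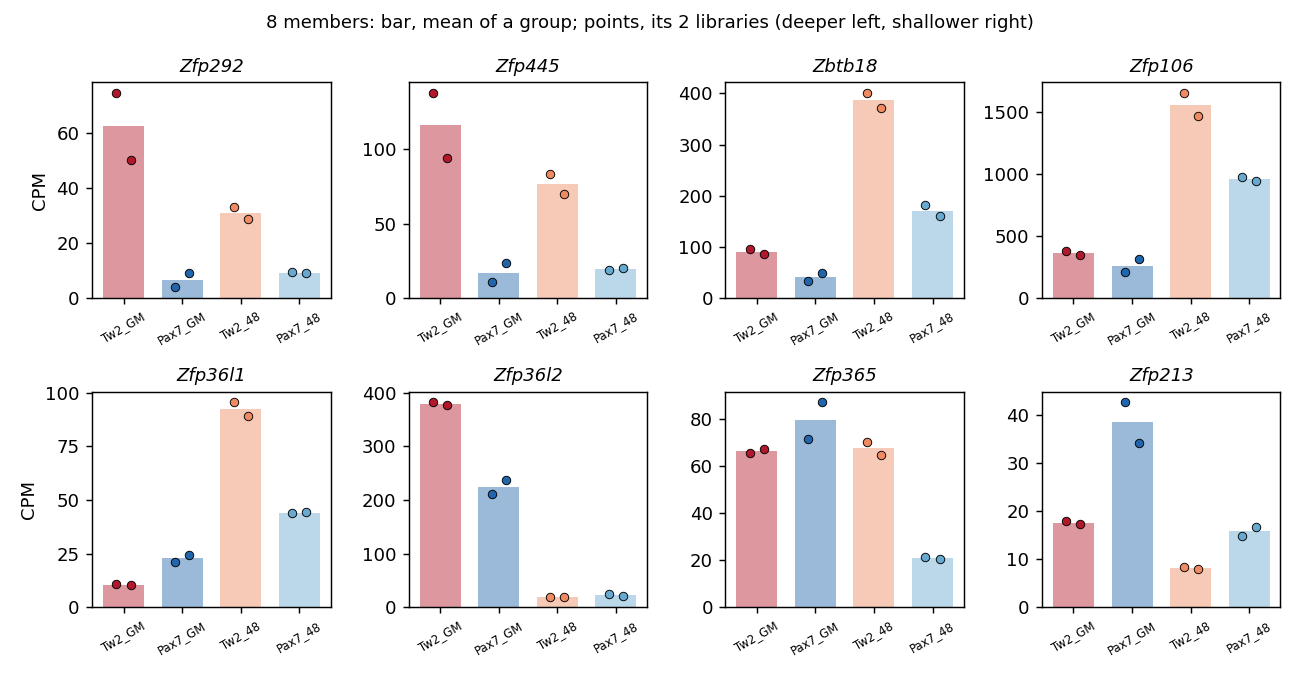
CPM of 8 zinc finger genes; bars are group means and points the 2 libraries of a group, on linear axes that start at 0 and differ between panels. Zfp292 and Zfp445 stand highest in Tw2_GM, Zbtb18, Zfp106 and Zfp36l1 in Tw2_48, Zfp36l2 in Tw2_GM, and Zfp365 and Zfp213 in Pax7_GM.

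Between 48 and GM zinc finger genes moved both ways. In the Tw2 lineage 19 of the 105 genes were higher at 48 (18.1%), 54 were lower (51.4%) and 32 were not called. Of all genes tested 84.1% were called, 35.3% higher and 48.9% lower, so the family's share of lower genes was close to that of all. The family's median log2 fold change was -0.63, against -0.49 for all listed genes. These values moved with the scaling: under size factors the family's median was -0.185, against -0.045 for all genes, and under quantile normalization it was -0.312, against -0.254. Once the GC and length trend was taken out it was -0.242, against -0.268 for all genes, so that the family then lay 0.026 above them. With size factors 33 were lower, where 40.68% of all genes were. In the Pax7 lineage 24 were higher, 32 lower and 49 not called, where 79.2% of all genes were called, 38.8% higher and 40.5% lower, with medians of 0.04 and 0.01. The Pax7 counts depended on the GM libraries: without the shallower one 59 genes were called higher, where 48.15% of all genes were, and without the deeper one 50 were called lower, where 48.42% of all genes were. Both lineages gave the same call for 18 genes higher, 17.1% against 33.2% of all genes, and for 30 lower, 28.6% against 39.4%. Lower in Tw2 with no call in Pax7 were 24 genes, 22.9% against 9.34% of all genes. Higher in Pax7 with no call in Tw2 were Zfp260, Zfp280b, Zfp697, Zfp715, Zfp866 and Zfp91, 5.71% against 5.37% of all genes and so close to that share. Zfp365 was lower in Pax7 with no call in Tw2 (0.952% against 0.825% of all genes), and Zfp385a had opposite calls (0.952% against 0.422%).

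The largest rises at 48 were shared by both lineages, apart from that of Zfp36l1 described below. Zfp106 rose to 1657 and 1464 CPM in Tw2_48 libraries, against 378 and 345 CPM in Tw2_GM libraries (log2 fold change 2.11 ± 0.20), and to 978 and 942 CPM in Pax7_48 libraries, against 206 and 312 CPM in Pax7_GM libraries (1.92 ± 0.20). Zbtb18 rose with log2 fold changes of 2.09 in Tw2 and 2.08 in Pax7, and Zfp346 with 2.03 and 1.88. Zfp346 had 321 and 328 CPM in Tw2_48 libraries against 81.2 and 76.5 CPM in Tw2_GM libraries. Zfp651 followed with 1.67 in Tw2 and 1.73 in Pax7, and Zfp322a with 1.29 in Tw2 and 1.87 in Pax7, the last value 1.19 without the deeper Pax7_GM library. The 48 libraries of these genes stood above the GM libraries of the same lineage, a condition for naming the largest rises of a lineage. That held for 2115 of the 5452 genes tested in Tw2 and for 2290 in Pax7. Zfp503, a corepressor of the NocA family named here for its missing C2H2 motif after its values were seen, rose to 85.6 and 86.5 CPM in Tw2_48 libraries, against 34.4 and 30.5 CPM in Tw2_GM libraries (1.38), and by 1.501 in Pax7.

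Zfp36l2 fell furthest. A relative of Zfp36l1 that also binds AU-rich mRNA, it is encoded at chr17:84183931-84187947 on the minus strand. It fell to 18.9 and 18.6 CPM in Tw2_48 libraries, against 382 and 376 CPM in Tw2_GM libraries (log2 fold change -4.27 ± 0.13, limma adjusted p = 3.2e-08). In the Pax7 lineage it fell to 23.8 and 20.95 CPM in Pax7_48 libraries, against 210 and 237 CPM in Pax7_GM libraries (-3.26 ± 0.13, limma adjusted p = 2.6e-07). Zfp462, which had the most C2H2 motifs of the family (33), fell to 12.8 and 13.0 CPM in Tw2_48 libraries, against 93.1 and 76.6 CPM in Tw2_GM libraries (-2.62 ± 0.26), and its change in Pax7 was -2.67 ± 0.26. Zfp111 (-2.16 in Tw2 and -1.71 in Pax7), Zfp518b (-2.13 in Tw2), Zfp7 (-2.04 in Tw2), Zfp862-ps (-2.24 in Pax7) and Zfp365 (-1.87 in Pax7) were the others with the largest falls. For Zfp36l2 and Zfp462 the cultures were separated by a gap many times the difference between the libraries of a group.

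**Figure D4:**
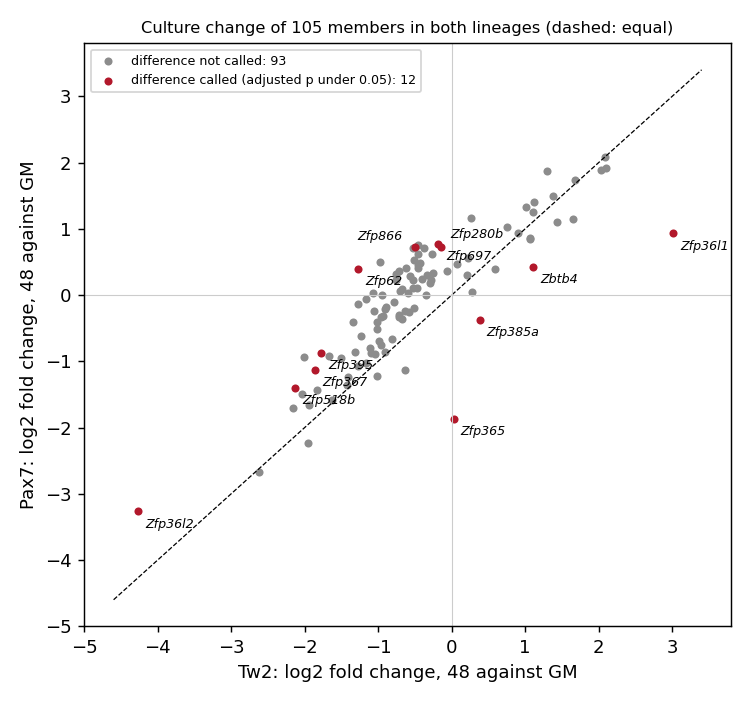
Log2 fold change of 48 against GM for the 105 zinc finger genes, Tw2 on the horizontal and Pax7 on the vertical axis; red points are the 12 genes whose change differed between the lineages, and the dashed line marks equal change. Zfp36l1 and Zfp365 lie far to the right of the line and Zfp36l2 at the lower left, at -4.27 and -3.26.

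The change from GM to 48 was compared between lineages as a difference of fold changes, Tw2 minus Pax7. It was called higher for 4 of the 105 genes and lower for 8, where 18.7% of all genes were called, 9.72% higher and 9.01% lower. The median difference was -0.50, against -0.22 for all listed genes. It was -0.229 without the deeper Pax7_GM library, against -0.147 for all genes, and -0.278 with size factors, against -0.001. The count of 8 depended on single libraries: without any 1 library outside Pax7_GM it was 0 or 1. Without the shallower Pax7_GM library 68 genes were called lower, where 40.19% of all genes were, and without the deeper one 20, where 18.4% of all genes were. Zfp36l1 rose to 95.7 and 89.2 CPM in Tw2_48 libraries, against 10.8 and 10.3 CPM in Tw2_GM libraries (3.01 ± 0.13), while in the Pax7 lineage it rose to 43.9 and 44.4 CPM in Pax7_48 libraries, against 21.3 and 24.1 CPM in Pax7_GM libraries (0.93 ± 0.13). The difference of 2.08 ± 0.18 (limma adjusted p = 0.00032) goes with a reversed order of the lineages, lower in Tw2 in GM and higher in Tw2 at 48. Zfp365, whose protein has no C2H2 motif and is known for protecting genome stability, had 70.4 and 64.8 CPM in Tw2_48 libraries, against 65.5 and 67.3 CPM in Tw2_GM libraries. It fell to 21.4 and 20.6 CPM in Pax7_48 libraries, against 71.8 and 87.4 CPM in Pax7_GM libraries, a difference of 1.89 ± 0.20 (limma adjusted p = 0.0007). Zfp36l2 fell more in Tw2 than in Pax7 (-1.003 ± 0.19, limma adjusted p = 0.0089), and its lineage difference was 0.76 ± 0.13 in GM and -0.24 ± 0.13, not called, at 48. Zfp36l1 and Zfp365 kept their call in every leave-one-out fit.

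Transcript GC content moved with the lineage difference across the family. The 105 genes had a median transcript GC of 45.5%, against 49.2% for listed genes with a value (5431), and a median length of 4748 bases against 3594. Spearman's rho between GC and the GM log2 fold change was -0.83 over the 105 genes and -0.71 over 5431, and at 48 -0.79 and -0.64; genes share the same 8 libraries, so these are descriptions. With length the values in GM were 0.30 and 0.42. Listed genes were split by GC into 5 bins of equal size. In the lowest bin, 33.0 to 43.5% GC, 42 zinc finger genes had a median GM log2 fold change of 2.35 against 1.87 for all genes of the bin. The other bins, in rising GC, held 19, 23, 11 and 10 of them, with medians of 1.22 against 1.101, 0.64 against 0.30, 0.14 against -0.31 and 0.05 against -0.39. In every bin the median of the family was thus above that of all genes. The ratio of the shallower to the deeper Pax7_GM library followed GC as well, with rho of -0.81 over the 105 genes and -0.78 over all with a GC value. The part of GC content and of this library difference in the lineage results was not tested beyond the fits given above.

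**Figure D5:**
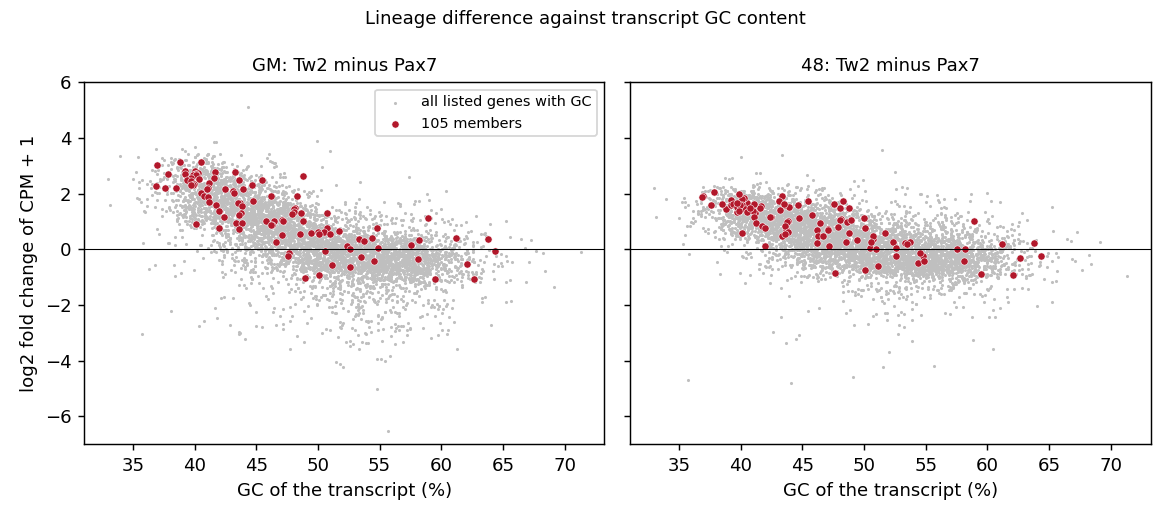
Log2 fold change of CPM + 1, Tw2 minus Pax7, against transcript GC content (%) in GM (left) and at 48 (right); red, 105 zinc finger genes, grey, listed genes with a GC value. Points fall with rising GC in both panels, with rho of -0.83 and -0.79 for the red points and -0.71 and -0.64 for the grey.

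The number of fingers varied widely within the family. Genes with a coding sequence had a median of 8 C2H2 motifs, up to 33, and 61 carried at least 1 of the linkers TGEKP or TGERP that join tandem fingers. In GM 30 genes with 0 to 4 motifs had a median log2 fold change of 0.76 (20 higher, 3 lower), 35 with 5 to 9 had 1.30 (28 and 5), and 39 with 10 or more had 1.68 (34 and 0). Of all genes tested 48.7% were higher and 26% lower. Without the trend in GC and length the medians were 0.79, 0.70 and 1.05. At 48 they were 0.65, 0.97 and 1.09, and 0.54, 0.55 and 0.55 with the trend removed. Chromosome 7 held 20 of the 105 genes, 19.0% against 6.54% of listed genes. Strand handling in the authors' counting is not given in the sources used here, and 40 of the 105 genes share exon bases with another annotated gene. For 4 of these the shared part is at least 20% of their exon bases, always with a noncoding RNA gene on the opposite strand: Zfp36l1 (55.9%), Zfp213 (46.5%), Zfp106 (26.1%) and Zfp507 (23.3%), so reads of the 2 strands cannot be told apart there. Neighbouring zinc finger genes are also often close in sequence, and how reads matching several of them were counted is not given.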

How the data were processed

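RNA was extracted with Trizol from cultured, sorted cells and sequenced. TopHat2 2.0.0, DESeq2 1.6.3 and the builds GRCm38 and mm10 stand in the submitters' processing notes, with no role given. The counter, annotation and strand handling are not given in the sources used here. The authors deposited, for 5457 genes, the mean CPM of each of the 4 groups and 3 log2 fold changes against Tw2_GM, which match the ratios of those means. Every listed gene reaches 10 CPM in at least 4 libraries.

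The CPM means carry 12 significant digits, so each was solved for the whole read numbers of its 2 libraries (within 1.1 times the rounding error). All 105 family members and 5452 of the 5457 genes had a single solution, and the other 5 were left out. The solving step was run on simulated means, made from whole reads at the implied totals and, for both lineages, at the Pax7 levels. This cannot check whether the authors' means were formed in that way. Implied scaling totals are 5183380 to 13733379 reads per library, and intervals and limits cover counting error only.

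limma 3.58.1 in R 4.3.3 was fitted to log2(CPM + 1) of the 8 libraries, with 4 residual and 4.022 prior degrees of freedom, and p-values were adjusted by Benjamini-Hochberg over the 5452 genes and called under 0.05. The pseudocount makes fold changes of low genes smaller. No count model was used, since the deposited values are means of CPM. Samples were grouped by their titles. Alternatives were pseudocounts of 0.5 and 5, a filter at a mean of 20 CPM, size factors, quantile normalization, removal of the trend with GC and length (spline with 4 degrees of freedom, 5431 genes), fits on the groups compared, leaving out each library, and narrower gene lists.

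GC, length, coordinates and exons come from GENCODE M21 (GRCm38), whose translated transcripts also gave the C2H2 motifs in place of RefSeq proteins, and start windows from RefSeq (GRCm38.p6). Tables were made with Python 3.11.15, pandas 2.3.3, numpy 2.4.6 and scipy 1.17.1. The genes named are, among those called whose libraries do not overlap between groups, the 10 largest each way between lineages, the 5 largest each way between cultures and for the difference of changes, the 5 highest per kb, and the members of the role lists, with up to 4 from each other list. The family and the lists were chosen with earlier results of these data known.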

Additional observations from a re-analysis of the deposited data

Results flagged for a closer look

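For 12 of the 105 genes the change between 48 and GM differed between the Tw2 and the Pax7 lineage in a direct test of that difference (limma interaction, adjusted p under 0.05). All values are differences of log2 fold changes, Tw2 minus Pax7, with n = 2 libraries per group.

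The change was greater in Tw2 for 4 genes. Zfp36l1 (2.08) rose in both lineages and Zfp365 (1.89) fell in Pax7. Zfp385a (0.75) had 21.3 and 20.5 CPM in Tw2_48 libraries, against 16.4 and 15.4 CPM in Tw2_GM libraries, a rise. It had 25.1 and 27.6 CPM in Pax7_48 libraries, against 36.7 and 32.2 CPM in Pax7_GM libraries, a fall. Zbtb4 (0.69) rose in both, by 1.11 in Tw2 and 0.42 in Pax7.

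The change was lower in Tw2 for 8 genes. Zfp62 (-1.68) fell by 1.28 in Tw2 and had a value of 0.40 in Pax7 that was not called. Zfp866 (-1.22), Zfp697 (-0.96) and Zfp280b (-0.88) rose in Pax7, by 0.72, 0.77 and 0.73, and were not called in Tw2. Zfp36l2 (-1.003), Zfp395 (-0.90) and Zfp518b (-0.73) fell in both lineages, and so did Zfp367 (-0.73), by 1.86 in Tw2 and 1.13 in Pax7.

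Zfp36l1, Zfp365, Zbtb4, Zfp36l2 and Zfp280b kept this call under size factors, quantile normalization and removal of the GC and length trend. When any 1 library outside Pax7_GM was left out, the call was lost for every one of the 12 except Zfp36l1 and Zfp365, which kept it, and Zfp36l2, which lost it without 3 of the 8 libraries (the deeper Tw2_GM, the shallower Tw2_48 and the deeper Pax7_48 library).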

How the results depend on the processing

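No paired analysis was possible because the columns carry no replicate numbers. For single genes, 687 values under settings that leave out no single library kept direction and call, 45 lost a call, 15 gained one and 17 turned direction, and in fits with 1 library left out 788 kept both, 104 lost a call and 12 gained one. The cause of the changes below was not tested unless fewer genes or libraries entered the fit. Zinc finger genes called higher in Tw2 in GM numbered 51 with the 20 CPM filter, which leaves 64 of them, and 53 with size factors, and genes called lower 23 with size factors and 15 with quantile normalization. At 48 they were 47 and 41 higher with the filter and size factors, and 4, 23, 13 and 3 lower with the filter, size factors, quantile normalization and the GC and length trend removed. The excess of the family's median over all genes fell to 0.349 in GM, 0.235 at 48 and -0.080 for the difference of changes with that trend removed. For 48 against GM, 30 and 33 genes were lower in Tw2 with the filter and size factors, 18 lower in Pax7 with the filter, and 37 and 45 higher in Pax7 with size factors and quantile normalization. For the difference, 2 genes were higher without the RNA-binding list, and 14, 4, 2, 18 and 19 lower with a pseudocount of 5, the filter, size factors, quantile normalization and the trend removed.

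With single libraries left out, the counts ranged from 75 to 84 higher and 6 to 10 lower in GM (excess 0.706 to 1.195), and from 46 to 79 higher and 4 to 9 lower at 48 (excess 0.706 to 0.731). The 46 came without the deeper Tw2_48 library, and the 4 without that library or either Pax7_48 library. For 48 against GM they were 16 to 19 higher and 36 to 76 lower in Tw2 (excess -0.172 to -0.11), the 36 without the deeper Tw2_GM library, and 19 to 59 higher and 26 to 50 lower in Pax7 (excess -0.01 to 0.183). For the difference they were 2 to 6 higher and 0 to 68 lower (excess -0.469 to -0.082): 68 without the shallower Pax7_GM library, 20 without the deeper one, and 0 or 1 without any other.

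Directions turned without a call, apart from Zfp346 (both settings), Zfp516 (both cultures) and Zbtb4, which were then called lower, in GM with the trend removed for Zfp622 (0.070), Zfp219 (0.250), Zfp862-ps (0.110), Zfp651 (0.195), Zfp422 (-0.102) and Zbtb18 (-0.068). With size factors they turned in GM for Zfp36l2 (-0.107), Zfp106 (-0.362), Zfp346 (-0.724), Zfp521 (-0.296), Zfp422 (-0.122) and Zfp516 (-0.564), and at 48 for Zfp207 (-0.049), Zfp516 (-0.399) and Zbtb4 (-0.591). With quantile normalization they turned in GM for Zfp346 (-0.452) and Zfp521 (-0.012). Only 2 libraries per group, and 3 reads at 0.218 to 0.579 CPM, limit what low genes can show.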

Other observations

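Zinc finger genes often lie in runs, and 13 pairs of family members that follow each other along a chromosome, with no other of the 105 between them, are annotated within 200000 bases of each other. The longest run, on chromosome 7 between 29783998 and 30169750 (GRCm38), holds Zfp30, Zfp790, Zfp74, Zfp568, Zfp260 and Zfp146 in that order. Their log2 fold changes of Tw2_GM over Pax7_GM were -0.06, 1.33, 2.16, 1.04, 2.79 and 2.63, so that a gene with no call stood next to genes several-fold higher in Tw2_GM. Between 48 and GM in the Tw2 lineage the same genes had values of 1.43, 0.76, -0.34, 1.00, -0.53 and -1.28, with Zfp30 and Zfp568 higher and Zfp146 lower at 48. Zbtb6 and Zbtb26, which overlap on the same strand of chromosome 2, had close values of 2.36 and 2.32 in GM and 1.603 and 1.67 at 48, and reads of the shared stretch cannot be told apart. These neighbours were looked at after their values were seen and were not tested as a group.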
